A study of Mus musculus with 4 samples.

Results

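Wnt proteins, their receptors, their secreted antagonists and the R-spondin system form the group of 44 genes described here. The members are the mouse Wnt and frizzled genes, found by symbol, together with 15 named regulators, and all 44 were among the 26214 symbols of the deposited count tables. By role they comprised 19 Wnt ligands, 10 frizzled receptors (Fzd), 2 co-receptors (Lrp5 and Lrp6), 8 antagonists, 4 genes of the R-spondin system and the feedback gene Axin2. Expression was compared by RNA-seq between 2 libraries from mice given a medicinal herb extract (MHE) and 2 libraries from mice given phosphate-buffered saline (PBS). The RNA came from the stromal vascular fraction (SVF) of inguinal white fat, which is what remains of digested fat under the skin of the groin once floating adipocytes are removed. The sources used here give no strain, sex, age, diet, dose, duration or composition of the extract. The labels call the libraries biological replicates, and the protocols speak of triplicates where 2 per group were analysed here.

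Wnt ligands are lipid-modified secreted proteins that bind a frizzled receptor. When Lrp5 or Lrp6 joins the complex, the scaffold protein axin is drawn to the membrane, beta-catenin escapes destruction and TCF/LEF factors switch on targets such as Axin2, whereas other ligands, with Wnt5a as the best studied, act largely without beta-catenin. R-spondins bound to the receptors Lgr4, Lgr5 or Lgr6 keep frizzled proteins at the surface by removing the ubiquitin ligases Rnf43 and Znrf3, and secreted antagonists capture the ligand or block the co-receptor. In fat, beta-catenin signalling holds progenitors back from becoming adipocytes.

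Libraries held between 27161882 and 33391075 counts. In these bulk samples, fewer cells of a type and less RNA per cell cannot be told apart. Transcripts of mature adipocytes were present despite the fraction's name: the 16 adipocyte markers took 3.01% to 3.64% of counts with the extract and 4.68% to 6.41% with saline, none of them at 0. The 15 markers of adipocyte progenitors and fibroblasts took 0.579% and 1.34% with the extract (replicates 1 and 2) and 1.03% and 1.61% with saline. Lymphocyte transcripts separated the groups widely. The 12 T cell markers took 0.0796% to 0.111% of counts with the extract and 0.00146% to 0.00451% with saline, and the 12 B cell markers 0.190% to 0.244% and 0.000910% to 0.0123%. The 7 markers of lymph node stroma, with Ccl19 at 0 in every library, took 0.0504% to 0.0872% with the extract and 0.00146% to 0.0144% with saline. For the 8 markers of lymphatic endothelium the shares were 0.0679% to 0.0965% and 0.00672% to 0.0242%. Ccl21a is in both of these lists. PBS replicate 1 stood apart in markers of mesothelium (the lining of body cavities) and of epithelium, and in some of smooth muscle. Their values are given beside the genes they moved with. The part of these cell types in the results below was not tested unless a measurement is stated.

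Of the 44 genes, 32 had enough counts to be tested, and 2 of them passed: Lgr4 and Wnt5a, both lower with the extract. That is 6.25% of the tested members, beside 4.93% of the 16196 genes tested in all (3.97% higher and 0.963% lower). The test was edgeR's quasi-likelihood test, adjusted over all genes. No member passed on the higher side with edgeR, where 2 (Fzd10 and Wnt10a) had an unadjusted p under 0.05. DESeq2, limma-voom (7% of all genes called) and edgeR's newer quasi-likelihood setting (5.88% called) each called 1 higher member, Fzd10. At an unadjusted p under 0.05 stood 37.5% of the tested members (2 higher and 10 lower) and 28.6% of all tested genes. The median log2 fold change (MHE minus PBS) was -0.73 over the tested members and -0.02 over all genes. It was above 0 in 9 of the 32, and in 48.8% of all tested genes. Genes enter the test with enough counts in at least 2 libraries of any group. Fzd10 thus entered on its extract libraries alone and Wnt8b on its saline libraries alone. The extract libraries were enough for Wnt10a to enter.

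The count of members called depended on the tool and on single libraries. DESeq2 called 6 (1 higher and 5 lower: Fzd2, Fzd4, Rspo1, Lgr4 and Wnt5a), where it called 18.2% of all genes. The edgeR count was 8 without PBS replicate 1 (16.5% of all genes) and 11 without PBS replicate 2 (14.6% of all genes), and 0 without either MHE library, when no gene at all passed. Leaving out a library leaves its group with 1, whose spread is then taken from the other group.

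**Figure D1:**
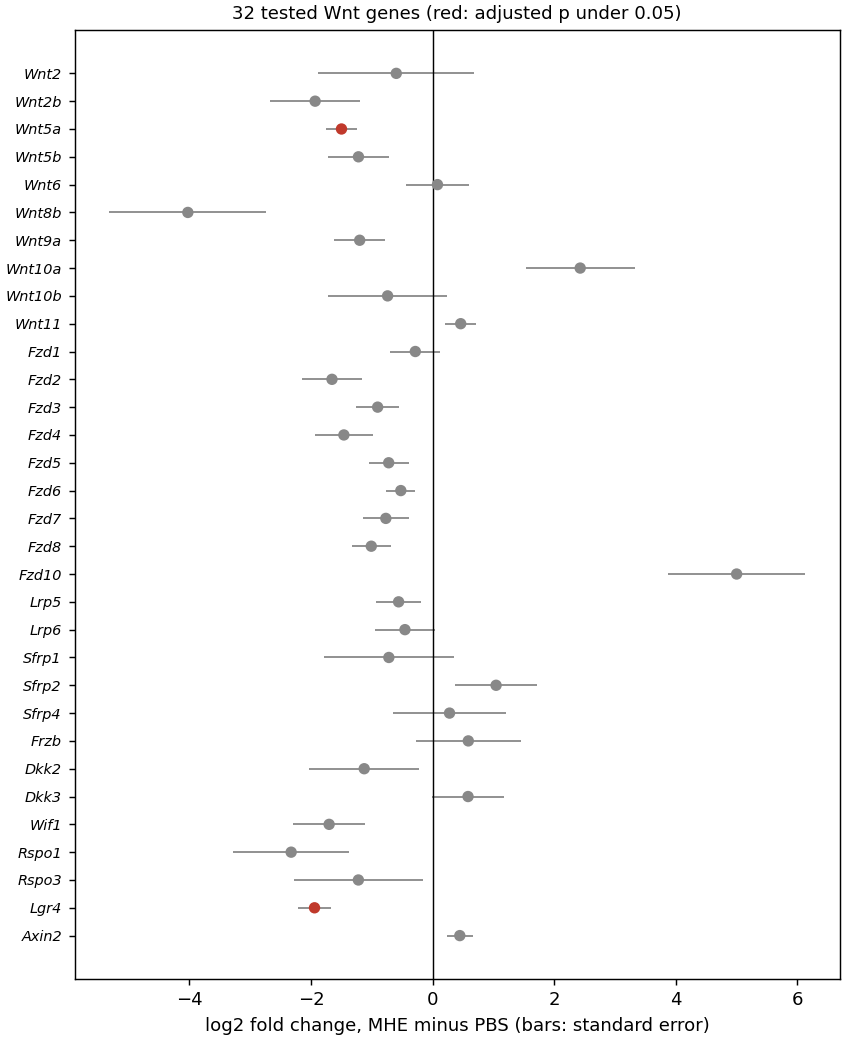
Log2 fold change (MHE minus PBS) of the 32 tested members, with the standard error as bars, ordered by role from ligands to Axin2. Lgr4 at -1.94 and Wnt5a at -1.50 (red) passed the test, and Fzd10 at 4.999 has the highest value with a wide error.

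Lgr4, a receptor for R-spondins, was the member with the smallest p. It stood at 20.2 and 26.7 CPM (read counts scaled to library size) in the extract libraries and at 77.2 and 103 CPM in the saline libraries. The groups did not overlap, and each pair of replicates lay within 1.34-fold. Its mean was 23.5 ± 4.56 CPM in the extract group and 90.2 ± 18.4 CPM in the saline group (SD, n = 2 each), a fold of 3.85. Lgr4 fell by 1.94 on the log2 scale (SE 0.26, edgeR adjusted p = 0.0326). The gene lies on chromosome 2 (109917647 to 110014257 in mm10) and no other annotated gene shares its exons. It passed when PBS replicate 1 or 2 was left out (adjusted p = 7.79e-04 and 0.00294), and had adjusted p = 0.327 and 0.275 without MHE replicates 1 and 2.

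Wnt5a, a ligand known mainly for signalling without beta-catenin and for its link to inflammation in obese fat, was the other. Its levels were 9.90 and 11.8 (extract) and 25.7 and 35.8 CPM (saline). Again both extract libraries lay below both saline libraries. The means were 10.9 ± 1.36 and 30.7 ± 7.11 CPM (SD, n = 2 each), and Wnt5a fell by 1.50 on the log2 scale (SE 0.26, adjusted p = 0.0468). It lies on chromosome 14 (28504750 to 28527448). An unlisted gene model on the opposite strand, Gm2670, shares exonic bases with it, and without knowledge of the strand setting reads of the pair cannot be told apart. Wnt5a passed without PBS replicate 1 (adjusted p = 0.00408) and PBS replicate 2 (0.0271), and had 0.344 and 0.296 without MHE replicates 1 and 2. The 12 markers of pericytes and smooth muscle took 0.0723% to 0.115% of counts with the extract and 0.317% to 0.363% with saline. None was at 0, and the summed share ran in the direction of Lgr4 and Wnt5a. By gene, 5 of the 12 lay below saline in both extract libraries (28.9% of all tested genes did) and 7 overlapped between groups. Only 1 passed edgeR, as lower. The part of these cells in Lgr4 and Wnt5a was not tested. Unlisted gene models also lie antisense to exons of Wnt11, Fzd5, Fzd6, Sfrp2, Rspo3 and Axin2.

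The promoters were searched for the TCF/LEF motif CTTTGAT on both strands (ATCAAAG on the other), since the genes of 2 factors that read it are among those described below. RefSeq start sites of GRCm38.p6, the assembly of mm10, were matched for 29 of the 44 members, and Wnt5a was not among them. Of those 29, 2 held the motif between 250 bases before and 50 bases after a start site (Wnt5b and Wnt11), and so did 4.29% of all 27025 genes with a window. The 250 bases before the start are printed for Lgr4, which fell, and for both members with a match, whose motif is in capitals. No match lies in the Lgr4 window shown, the Wnt11 match ends 44 bases before the start, and the Wnt5b match ends 64 bases before 1 of its 3 RefSeq starts, which lies inside the span of the gene.
Lgr4, chr2:109917397-109917646, plus strand: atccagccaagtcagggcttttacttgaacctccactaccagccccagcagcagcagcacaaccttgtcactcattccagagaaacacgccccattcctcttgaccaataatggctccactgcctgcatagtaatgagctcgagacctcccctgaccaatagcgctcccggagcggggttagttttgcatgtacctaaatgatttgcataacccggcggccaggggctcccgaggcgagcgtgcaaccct
Wnt11, chr7:98834862-98835111, plus strand: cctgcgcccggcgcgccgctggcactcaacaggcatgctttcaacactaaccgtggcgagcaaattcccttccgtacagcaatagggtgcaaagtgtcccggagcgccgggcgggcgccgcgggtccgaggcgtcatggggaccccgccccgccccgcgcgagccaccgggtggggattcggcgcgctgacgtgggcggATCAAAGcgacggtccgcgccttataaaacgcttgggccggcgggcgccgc
Wnt5b, chr6:119449387-119449636, minus strand: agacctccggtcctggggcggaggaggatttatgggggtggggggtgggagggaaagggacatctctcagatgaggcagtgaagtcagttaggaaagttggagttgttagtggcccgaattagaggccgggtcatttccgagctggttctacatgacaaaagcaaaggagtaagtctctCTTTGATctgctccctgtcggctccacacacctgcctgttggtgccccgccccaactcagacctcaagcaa

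Among the ligands, levels ranged from no count to 35.8 CPM. Scaled to length (CPM per kilobase of merged exons), the saline libraries were led by Wnt5a at 3.93 ± 0.909, Wnt9a at 2.60 ± 1.02 and Wnt11 at 1.60 ± 0.0862. The extract libraries were led by Wnt11 at 2.20 ± 0.0114, Wnt5a at 1.39 ± 0.174 and Wnt9a at 1.13 ± 0.295 (all SD, n = 2). In saline, neighbours in this order overlap within their SD. In the extract libraries Wnt11 stood clear of Wnt5a, and Wnt5a and Wnt9a overlap.

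Wnt11, a ligand of cell movement in development, was close to even between replicates. It had 9.06 and 9.13 (extract) and 6.86 and 6.35 CPM (saline), a log2 fold change of 0.46 ± 0.26 (SE) that did not pass (adjusted p = 0.298). Wnt9a stood at 3.07 and 4.46 CPM against 6.24 and 11.1 CPM, all below saline, with a log2 fold change of -1.20 ± 0.42 (adjusted p = 0.148). It passed only without PBS replicate 1 among the libraries left out (-1.57, adjusted p = 0.0240).

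Wnt5b, the close relative of Wnt5a, had 1.11 and 1.40 (extract) and 3.65 and 2.23 CPM (saline) (-1.22 ± 0.50, adjusted p = 0.190). Wnt2b had 1.08 and 1.19 CPM against 6.93 and 1.79 CPM, so that the saline libraries differed 3.87-fold from each other (-1.93 ± 0.74, adjusted p = 0.170). It passed without PBS replicate 2 (-2.59) and had -0.67 without PBS replicate 1. Both ligands thus lay below saline in each extract library without passing the test.

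Wnt10a ran the other way, with 1.32 and 1.30 CPM with the extract against 0.0722 and 0.406 CPM with saline, the latter being 2 and 12 counts. Its log2 fold change was 2.43 ± 0.89 (adjusted p = 0.160), and it passed without PBS replicate 2 (4.12, adjusted p = 0.0355), when only the library with 2 counts remained in its group. Wnt6, its neighbour 6.19 kb away on chromosome 1, had 1.29, 2.11, 1.66 and 1.55 CPM in MHE 1, MHE 2, PBS 1 and PBS 2, which is level within the spread. The other adjacent pairs, Wnt3a with Wnt9a, Wnt9b with Wnt3 and Wnt10b with Wnt1, each include a gene with at most 12 counts in any library.

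Wnt10b, the ligand best known for blocking adipocyte formation, had 0.753 and 1.83 (extract) and 0.614 and 3.68 CPM (saline). The groups overlapped (-0.74 ± 0.97, adjusted p = 0.644). Wnt2 varied even more within a group, at 1.63 and 2.95 (extract) and 0.289 and 6.62 CPM (saline), a 22.9-fold gap between the saline libraries. Its log2 fold change of -0.60 turned to 2.97 (adjusted p = 0.0367) without PBS replicate 2.

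Wnt8b had 0 and 4 counts with the extract and 20 and 47 with saline (-4.03 ± 1.29, adjusted p = 0.129). The remaining 9 ligands were below the count filter. Wnt3a and Wnt7a had no count in any library, as did the antagonist gene Dkk1. Over the 119300165 counts of all libraries, a count of 0 allows up to 0.0251 CPM for each (counting error only). Wnt1 and Wnt8a had 2 counts each in all. Wnt9b had 3 to 8 counts per library, Wnt16 0 and 15 with the extract and 0 and 6 with saline, and Wnt3 4 and 12 with the extract and 0 in both saline libraries. Wnt4 and Wnt7b are described with PBS replicate 1 below.

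**Figure D2:**
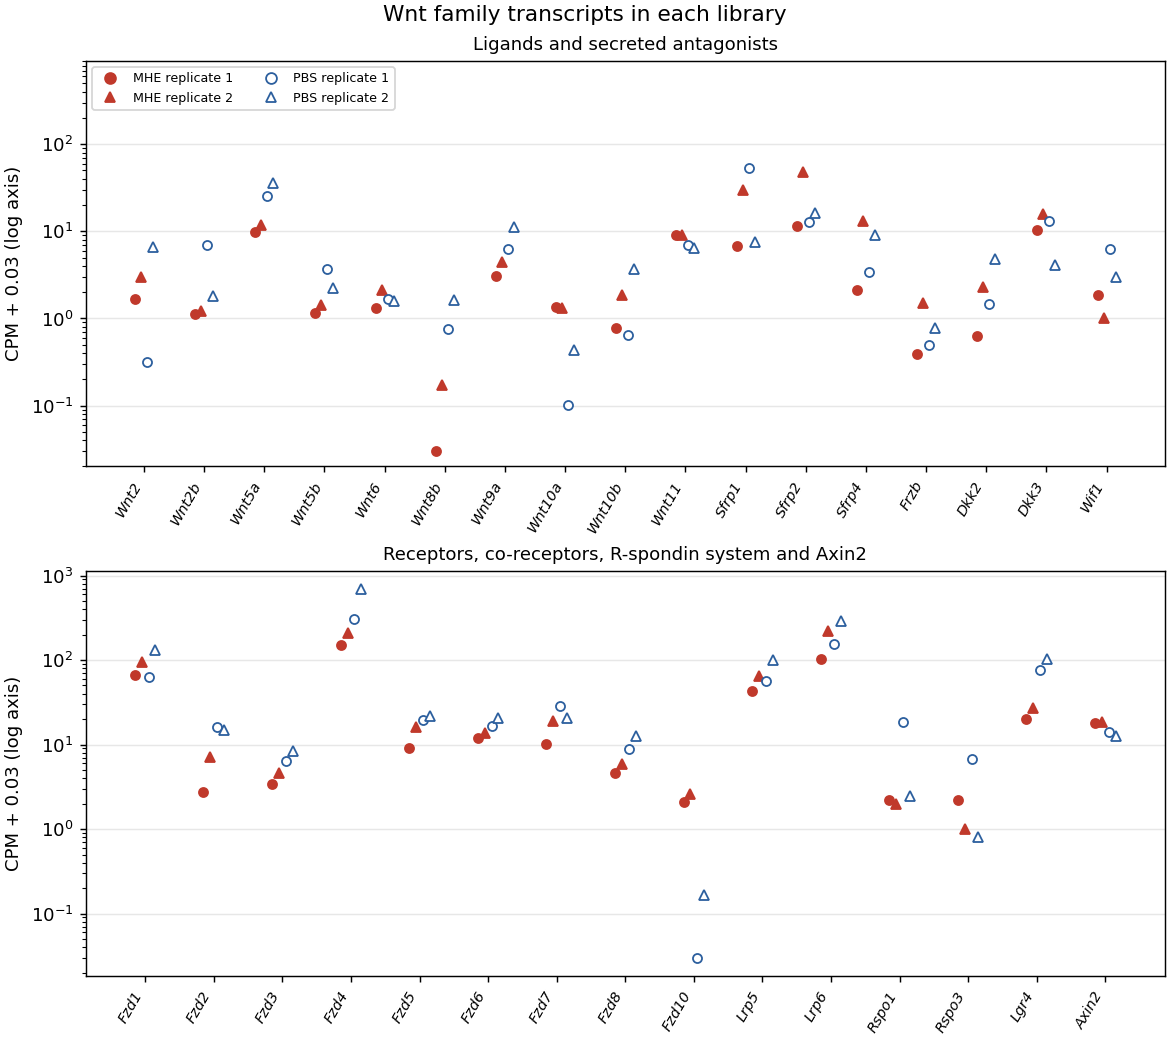
CPM of each tested member in the 4 libraries on a log axis, with 0.03 added so that libraries without counts appear. MHE libraries are filled red and PBS libraries open blue; Lgr4, Wnt5a and most frizzled genes have both red symbols below both blue ones, while Wnt2, Rspo3, Rspo1 and Sfrp1 differ most between libraries of 1 group among members with counts in every library.

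Fzd4 and Fzd1 had the highest levels per length of all members, and 7 of the 9 tested frizzled genes lay lower in both extract libraries than in both saline libraries. None passed the edgeR test (5 at an unadjusted p under 0.05, 4 lower and 1 higher). Over all tested genes, 62% did not overlap between the groups, 28.9% with the extract below. Fzd4, the receptor for norrin as well as for Wnts and abundant in vessels, led by length in both groups, at 26.8 ± 5.95 CPM per kilobase with the extract and 73.7 ± 40.7 with saline. Its libraries stood at 152 and 208 CPM (extract) and at 302 and 688 CPM (saline), so the replicates in saline differed 2.28-fold. Its log2 fold change was -1.46 ± 0.48 (adjusted p = 0.132); DESeq2 called it (adjusted p = 0.0107), as did edgeR without PBS replicate 1 (-1.95), while without PBS replicate 2 it had -0.74. The 12 markers of blood endothelium, none at 0, took 0.120% to 0.121% of counts with the extract and 0.131% to 0.208% with saline.

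Fzd2 had 2.74 and 7.13 CPM against 16.3 and 14.8 CPM (-1.66 ± 0.49, adjusted p = 0.116), and DESeq2 called it (adjusted p = 0.0158). Here the spread lay in the extract group: the value was -2.49 without MHE replicate 2 and -1.11 without MHE replicate 1. Fzd8 had 4.64 and 5.93 CPM against 8.81 and 12.5 CPM (-1.01 ± 0.32, adjusted p = 0.128), and passed without PBS replicate 1 (adjusted p = 0.0430). Fzd3 had 3.34 and 4.53 CPM against 6.35 and 8.38 CPM (-0.91 ± 0.35, adjusted p = 0.171). Each of these genes was lower in both extract libraries without passing the full edgeR comparison.

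Fzd7, second only to Fzd4 and Fzd1 by length, had 9.99 and 19.0 (extract) and 28.8 and 20.6 CPM (saline) (adjusted p = 0.249). Fzd5 and Fzd6 had log2 fold changes of -0.72 and -0.52 (adjusted p of 0.220 for both). Fzd1 alone among the abundant receptors overlapped between groups, at 66.6 and 94.1 (extract) and 63.3 and 133 CPM (saline), and its log2 fold change of -0.29 turned to 0.35 without PBS replicate 2. Fzd9 had 1 to 8 counts per library.

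Fzd10 was the exception to the direction of its family. It had 69 and 74 counts with the extract (2.08 and 2.60 CPM) and 0 and 4 counts with saline (0 and 0.135 CPM). Its log2 fold change of 4.999 ± 1.12 did not pass edgeR (adjusted p = 0.0704). DESeq2 (adjusted p = 4.03e-04), limma-voom (0.0491) and edgeR's newer quasi-likelihood setting (0.0472) called it. These calls read the same counts, and the gene entered the test on its extract libraries, so they are not separate support. With single libraries left out the log2 fold change ran from 4.05 to 9.13. The marker shares of T cells, B cells, lymph node stroma and lymphatic endothelium given above also separated the groups in this direction. Their part in the Fzd10 counts was not tested.

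The co-receptor genes were abundant and overlapped between groups. Lrp6 had 103 and 220 (extract) and 154 and 288 CPM (saline) (-0.46 ± 0.49, adjusted p = 0.573), and Lrp5 had 42.9 and 64.2 CPM against 56.8 and 101 CPM (-0.56 ± 0.37, adjusted p = 0.361). In both groups replicate 2 was the higher for both genes. Without PBS replicate 2 the values were 0.07 and -0.08.

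Secreted antagonists showed large differences between libraries of 1 group and none between groups that passed edgeR (1 of 7 tested, Wif1, at an unadjusted p under 0.05; DESeq2 and limma-voom called 0). Sfrp1, a decoy that binds Wnts through a frizzled-like domain, had 6.80 and 29.9 (extract) and 53.0 and 7.44 CPM (saline). Sfrp2, a related decoy of fibroblasts, had 11.4 and 48.0 (extract) and 12.7 and 16.1 CPM (saline) (1.04 ± 0.67, adjusted p = 0.355). Sfrp4 had 2.11 and 13.1 CPM against 3.39 and 9.09 CPM. In Sfrp1, Sfrp2 and Sfrp4 the 2 extract libraries were thus 4.40-fold, 4.21-fold and 6.20-fold apart, replicate 2 being the higher each time.

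Frzb and Dkk2 followed the same order within the extract group, 4.08-fold and 3.79-fold higher in MHE replicate 2, at 0.361 against 1.47 CPM and 0.602 against 2.28 CPM. Both overlapped with saline. The extract libraries were at least 2-fold apart in 6 of the 15 progenitor and fibroblast markers, none of which was at 0. Col1a1 had 73.4 CPM in MHE replicate 1 and 1339 CPM in MHE replicate 2, and Col3a1 439 and 2899 CPM, whereas Ly6a had 251 and 242 CPM, Cd55 172 and 133 CPM and Dpp4 56.1 and 61.6 CPM. These markers were picked after their values were seen. The part of fibroblast content in the antagonist values was not tested.

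Dkk3, which belongs to the Dickkopf family without blocking Lrp6 as its relatives do, had 10.3 and 15.6 (extract) and 13.2 and 4.12 CPM (saline) (adjusted p = 0.550), and passed without PBS replicate 1 (1.63). Wif1, a secreted Wnt-binding inhibitor, had 1.84 and 0.983 (extract) and 6.28 and 2.94 CPM (saline). It was the antagonist whose groups did not overlap (-1.70 ± 0.59, adjusted p = 0.147), and it passed without PBS replicate 2 (-2.14, adjusted p = 0.0216).

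**Figure D3:**
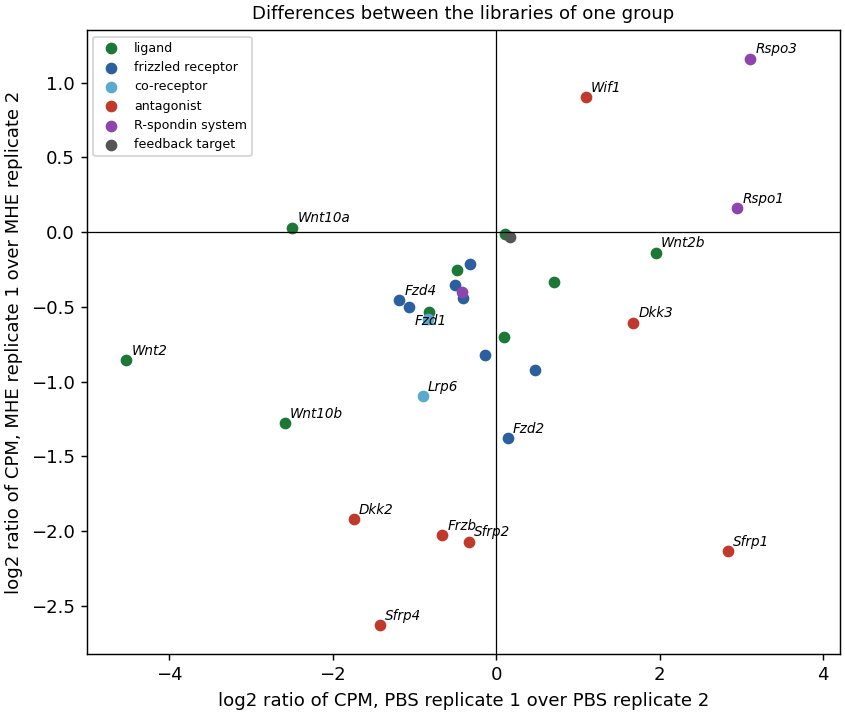
Log2 ratio of CPM between the saline libraries (horizontal) and between the extract libraries (vertical) for the 30 tested members with counts in every library, coloured by role; names mark ratios beyond 2-fold. Sfrp1, 7.13-fold higher in PBS replicate 1 and 4.40-fold higher in MHE replicate 2, sits at the lower right, Rspo1 and Rspo3 lie far right, and Wnt2 lies far left.

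The saline libraries differed at least 2-fold in 15 of the 32 tested members, against 17.8% of all tested genes, and the extract libraries in 10 of 32, against 10.2%. No test of this difference was made. Within the extract group, replicate 2 was the higher for 28 of 32 members (87.5%), including all 9 tested frizzled genes, and for 50.4% of all tested genes.

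Both R-spondin genes and some ligands were high in PBS replicate 1 alone. Rspo1, an R-spondin, had 2.20 and 1.97 (extract) and 18.6 and 2.40 CPM (saline) (-2.33 ± 0.96, adjusted p = 0.190). Without PBS replicate 1 the value was -0.22, and without PBS replicate 2 it was -3.14 and passed (adjusted p = 2.58e-04). Rspo3 had 2.20 and 0.983 CPM against 6.68 and 0.777 CPM, and its log2 fold change of -1.22 turned to 1.02 without PBS replicate 1 and was -2.05 without PBS replicate 2 (adjusted p = 0.0317). In the other 3 libraries both genes stayed between 0.777 and 2.40 CPM.

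Wnt4, a ligand of epithelia and of the developing gonad, had 65 counts in PBS replicate 1, none in PBS replicate 2 and 0 and 2 with the extract. Wnt7b had 114 counts in PBS replicate 1, 8 in PBS replicate 2 and 0 and 3 with the extract. Both were below the filter for the full comparison. They are among the 11 members called without PBS replicate 2, where they enter only through the library in which they are high, so those calls are no support. The stem cell receptor gene Lgr5 had 22 and 9 counts with saline and 5 and 6 with the extract.

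Several mesothelial and epithelial markers moved with these genes. The 6 mesothelial markers took 0.0140% of counts in PBS replicate 1, 0.000404% in PBS replicate 2 and 0.000187% to 0.000545% with the extract. Krt19, which is in both the mesothelial and the epithelial list, had 78.6 CPM in PBS replicate 1 and 0.542 to 3.04 CPM in the other libraries. Upk3b, a mesothelial uroplakin, had 31.6 CPM in PBS replicate 1 and 0.0676 to 0.120 CPM in the other libraries, the mesothelial transcription factor gene Wt1 had 7.91 CPM against 0 to 0.0676, and Muc16 was at 0 in the other libraries. The 12 epithelial markers took 0.0234% in PBS replicate 1 and 0.000758% to 0.00107% in the others, with the keratin gene Krt8 at 46.4 CPM against 0.0676 to 0.351. Krt10 did not follow, at 2.17 CPM in PBS replicate 1 and 1.90 to 2.62 CPM in the others, and Krt17 was at 0 in PBS replicate 1. Some smooth muscle markers, picked after their values were seen, were also high in PBS replicate 1. Cnn1 had 338 CPM there and 1.32 to 2.42 CPM in the other libraries, and Myh11 521 and 23.0 to 66.6 CPM. Acta2 ran the other way within saline, at 1025.5 CPM in PBS replicate 1 and 2213.5 CPM in PBS replicate 2. The 12 markers of that list took 0.363% and 0.317% of counts in PBS replicates 1 and 2. Lgr4 had 77.2 CPM in PBS replicate 1 and 103 CPM in PBS replicate 2, and Wnt5a 25.7 and 35.8 CPM.

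**Figure D4:**
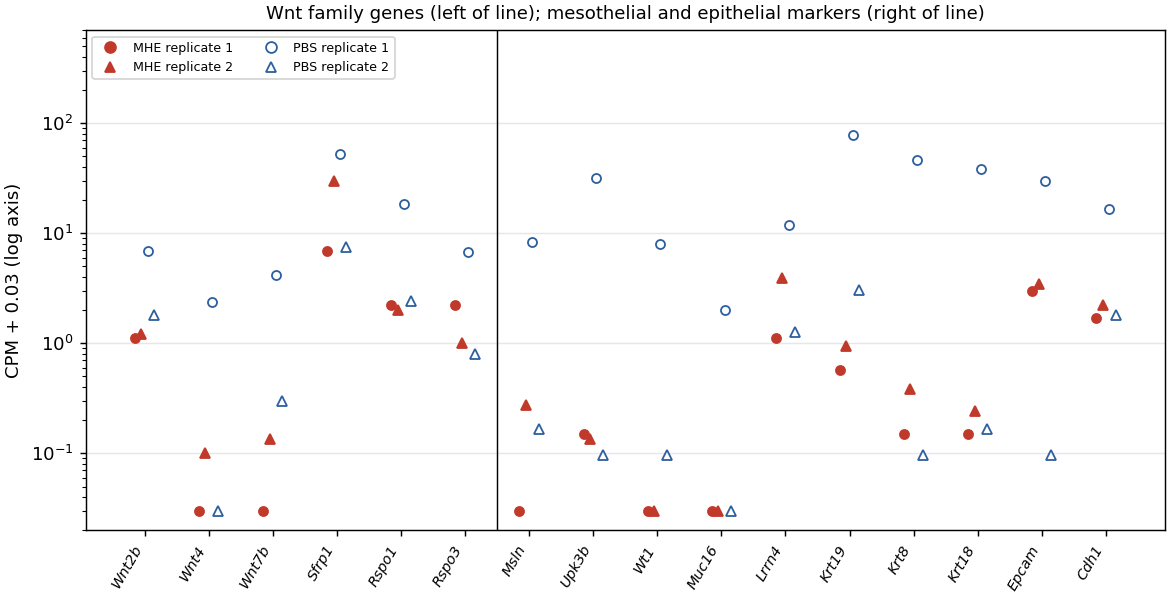
CPM (with 0.03 added, log axis) in each library of 6 members higher in PBS replicate 1 than in any other library, left of the line, and of mesothelial and epithelial markers, right of it; the genes were picked after their values were seen. PBS replicate 1 (open circle) is the highest library for every gene shown.

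Axin2, the target most often used as a readout of beta-catenin signalling, had tight replicates and a modest separation. It stood at 17.8 and 18.3 (extract) and 14.0 and 12.4 CPM (saline). Both extract libraries were above both saline libraries, and the log2 fold change of 0.45 ± 0.21 (SE) did not pass (edgeR adjusted p = 0.236, and 0.363 with DESeq2).

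Genes around the members were taken from lists of the Wnt pathway that do not include them. Of 92 further pathway genes, 81 were tested and 5 passed: Tcf7, Lef1 and Tle4 rose, and Sfrp5 and Nkd1 fell. That is 6.17% of those tested, beside 4.93% of all genes, and their median log2 fold change was -0.18. The lists overlap, and the reported targets include Tcf7 and Lef1. With DESeq2 the count was 14 of 81, beside 18.2% of all genes. With edgeR it was 18 of 83 without PBS replicate 1 (16.5% of all genes), 10 of 84 without PBS replicate 2 (14.6%) and 0 without either MHE library, when no gene passed. The DESeq2 count and that without PBS replicate 2 are thus no larger a share than among all genes.

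Sfrp5, the member of the decoy family made by adipocytes, was abundant and fell. It had 114 and 136 (extract) and 622 and 833 CPM (saline), a fold of 5.82. The log2 fold change was -2.54 ± 0.32 (adjusted p = 0.0279). The adipocyte markers were mixed: of 16 tested, 13 lay below 0 and 3 above, and their median log2 fold change was -0.63. Lep passed as lower (-2.72, adjusted p = 0.0409) and Adrb3 as higher (1.45, adjusted p = 0.0424). Adipoq, named here as an example, had 2075 and 1462 CPM against 3172 and 4231 CPM and did not pass (-1.07, adjusted p = 0.172). The part of adipocyte content in Sfrp5 was not tested. Of the 9 tested genes in its list of extracellular regulators, it alone passed. Apcdd1, a membrane-bound Wnt inhibitor, had 76.3 and 108 CPM against 170 and 391 CPM (-1.61, adjusted p = 0.113). Kremen2, a Dickkopf receptor gene near the detection limit, had 19 and 17 counts against 4 and 4, beside 790 to 1066 counts of a listed gene, 9530082P21Rik, that overlaps its exons on the opposite strand.

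Nkd1, a feedback inhibitor that beta-catenin signalling induces and that binds Dishevelled, fell from 45.0 and 49.5 CPM with saline to 9.30 and 12.6 CPM with the extract. The log2 fold change was -2.11 ± 0.24 (adjusted p = 0.0248) and the fold 4.32. Nkd1 lies on chromosome 8 (88521354 to 88594884). Nkd1 and Axin2, both feedback targets, thus stood on opposite sides of saline, the second without passing. Of 16 tested reported targets, 2 rose (Tcf7 and Lef1) and 1 fell (Nkd1), or 18.8% beside 4.93% of all tested genes. The list's median was 0.40, with 9 values above 0 and 7 below. That median includes Tcf7 and Lef1, which are also counted among the nuclear factors and are T cell genes. Myc and Ccn5 of this list were named after their values were seen: Myc had 43.4 and 42.9 CPM against 20.0 and 14.0 CPM (1.34 ± 0.25, adjusted p = 0.0502, and 0.0407 with limma-voom), and Ccn5 23.8 and 78.5 CPM against 234 and 394 CPM (-2.62 ± 0.65, adjusted p = 0.0851).

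Tcf7 and Lef1 encode the TCF/LEF factors of lymphocytes and are also T cell genes. Tcf7 had 244 and 205 (extract) and 7.76 and 2.06 CPM (saline) (5.52 ± 0.72, adjusted p = 0.0306). Lef1 had 59.8 and 51.1 CPM against 2.31 and 0.338 CPM (5.40 ± 0.85, adjusted p = 0.0424), and had adjusted p = 0.0512 with the replicate number as a block and 0.0620 without the low-count filter. The T cell marker list had a median log2 fold change of 4.998, and its part in these values was not tested. Tcf7l1 and Tcf7l2, the family members more typical of stromal cells and adipocytes, had 15.95 and 26.4 CPM against 27.2 and 37.2 CPM, and 13.6 and 28.01 CPM against 24.1 and 54.2 CPM, and did not pass (adjusted p = 0.281 and 0.308). Tle4, a co-repressor that pairs with TCF factors, rose from 15.7 and 19.0 CPM to 37.9 and 43.2 CPM (1.22 ± 0.21, adjusted p = 0.0467). Of the 13 tested nuclear factors 3 rose (23.1%) and none fell, beside 3.97% higher and 0.963% lower among all tested genes. Among the T cell markers 11 of 12 rose.

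Elsewhere in the pathway no gene passed edgeR. In the secretion and release list, 42.9% of tested genes had an unadjusted p under 0.05, beside 28.6% of all tested genes. The shares were 37.5% for the turnover and alternative receptors and 16% for the cytoplasmic genes. All 7 tested genes in the secretion and release list had negative log2 fold changes (median -0.53). Of these, 3 had an unadjusted p under 0.05, namely Wls, Porcn and Tinagl1. Wls, the Wnt carrier, had 60.1 and 71.5 CPM against 106 and 91.0 CPM (-0.58). Porcn, the enzyme that attaches the lipid, had 5.09 and 4.18 against 7.26 and 10.2 CPM (-0.91), and Tinagl1 had -1.04. Among 16 turnover and alternative receptors, 6 had an unadjusted p under 0.05. Znrf3, the ligase that Lgr4 and R-spondins counteract, had 12.1 and 13.3 CPM against 6.79 and 6.35 CPM (0.95 ± 0.24, adjusted p = 0.0881), opposite in sign to Lgr4. Ryk, a Wnt5a receptor, had 42.5 and 47.6 CPM against 66.2 and 86.1 CPM (-0.76, adjusted p = 0.113), and Celsr3 had 8 and 9 counts against 33 and 31. Of 25 cytoplasmic genes, 4 had an unadjusted p under 0.05, led by Axin1, the scaffold of the destruction complex, with 74.6 and 59.9 CPM against 35.2 and 35.4 CPM (0.93 ± 0.21, adjusted p = 0.0686). Dact2 and Wtip had -1.70 and -0.80. DESeq2 called 6 genes of these 3 lists, where it called 18.2% of all genes, a larger share: Znrf3 and Axin1 among those higher, and Ryk, Dact2 and Tinagl1 among those lower, with Celsr1, at 18.6 and 16.6 against 6.497 and 0.913 CPM, named here because it completes the count.

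**Figure D5:**
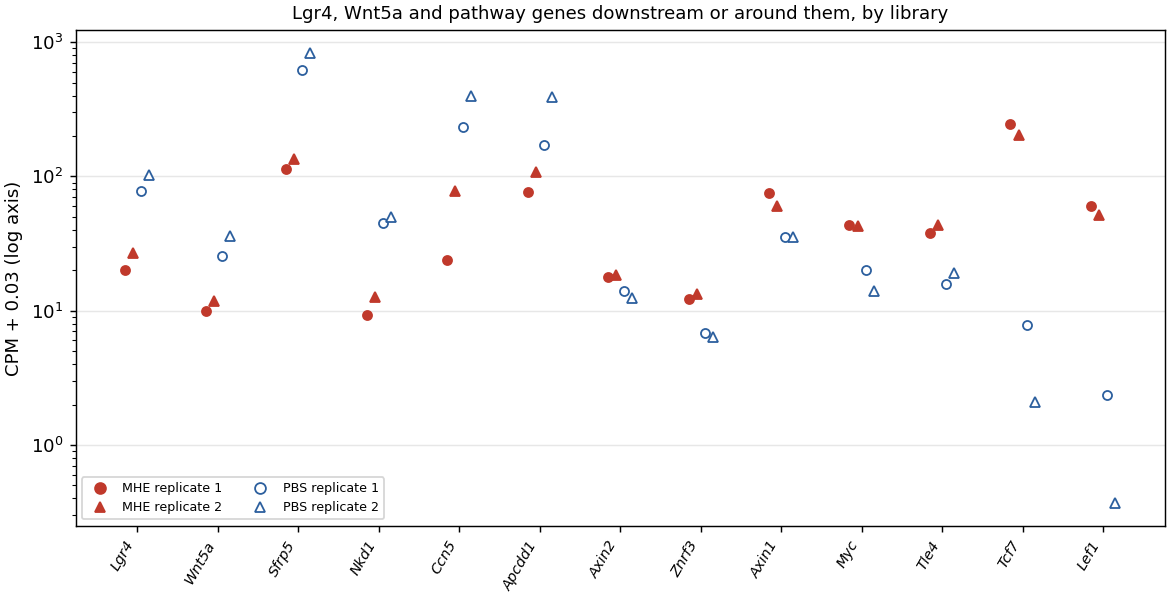
CPM (with 0.03 added, log axis) of Lgr4, Wnt5a and 11 related genes in each library, MHE filled red and PBS open blue. The genes were picked after their values were seen, and Ccn5, Apcdd1, Axin2, Znrf3, Axin1 and Myc did not pass edgeR. Lgr4, Wnt5a, Sfrp5, Nkd1, Ccn5 and Apcdd1 have both red symbols below both blue ones and Axin2 to Lef1 the reverse, with Tcf7 and Lef1 the farthest apart.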

How the data were processed

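Per the labels' protocols, Trizol total RNA of inguinal stromal vascular fraction went into standard Illumina libraries. The 4 deposited files hold raw integer counts of reads for 26214 symbols. TopHat2, edgeR, limma and build mm10 are named per the submitters' processing notes. The sources used here give no counting program, annotation or strand setting.

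From these counts, edgeR 4.0.16 (R 4.3.3) kept genes by filterByExpr (at least 10 counts, total of at least 15) and was run with TMM factors and a robust quasi-likelihood fit on group alone, with Benjamini-Hochberg adjustment over 16196 genes and a threshold of 0.05. CPM uses the TMM factors, SD has n = 2, and each SE was derived from the log2 fold change and its F statistic. Positions and merged exon lengths come from GENCODE M21, which matched all 44 members, and promoters from RefSeq GRCm38.p6. Alternatives were DESeq2 1.42.0, limma-voom (limma 3.58.1), other factors and filters, a newer quasi-likelihood setting, a replicate block and each library left out.

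Members and lists were chosen with earlier results of these data known. Every member is described: those past the threshold in full, then per role the smallest p and the highest level. Pathway genes are those past the threshold and the 3 smallest p of each list. With 2 libraries a side, 0.333 is the smallest two-sided p of an exact permutation test. All pairs of libraries differed beyond sampling noise (chi-square per degree of freedom 139 to 545). The procedure was tested on simulated data of the 16196 genes, with 200 of them changed in each draw. It recovered 59.2% of genes changed 4-fold and 86.2% changed 16-fold, and 13.5% of its calls were unchanged genes. That last share depends on how many genes are changed, so it is not an estimate for the calls reported here. The folds of Wnt5a (2.83) and Lgr4 (3.85) are below both simulated sizes.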

Additional observations from a re-analysis of the deposited data

How the results depend on the processing

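The 2 members called, Lgr4 and Wnt5a, were called under every setting run with all 4 libraries and without either saline library, and neither was called without MHE replicate 1 or MHE replicate 2, when no gene passed. The count of members was 6 with DESeq2 and 0 to 11 with single libraries left out, and that of the other pathway genes 14 with DESeq2 and 0 to 18. The replicate block left 2 members called. It also left 5 other pathway genes called, where Ccn5 (adjusted p = 0.0441) took the place of Lef1 (0.0512). Same-numbered libraries deviated together only weakly (r = 0.12 over genes). With 2 libraries per group, both same-numbered pairs must give this 1 value. Nothing in the labels pairs the libraries.

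Of the 32 tested members, 21 kept the sign of their log2 fold change whichever library was left out. The ranges of the 11 that turned were -1.55 to 2.97 for Wnt2, -0.30 to 0.40 for Wnt6, -1.54 to 1.07 for Wnt10b, -0.74 to 0.35 for Fzd1, -1.10 to 0.069 for Lrp6, -2.13 to 1.28 for Sfrp1, -0.32 to 1.75 for Sfrp2, -1.56 to 1.16 for Sfrp4, -0.73 to 1.29 for Frzb, -0.018 to 1.63 for Dkk3 and -2.05 to 1.02 for Rspo3. Wnt2 also turned with limma-voom (0.55) and with the replicate block (0.47), and Sfrp4 with both (-0.17 and -0.062). The cause was not tested. The members' median lay between -1.29 and -0.39 with single libraries left out. Library totals alone, which moved the median of all genes to 0.14, turned the medians of the turnover receptors (0.15) and the cytoplasmic genes (0.043), and the strict filter that of the turnover receptors (0.016). With single libraries left out the medians ran from -0.53 to 0.23 for the turnover receptors, from -0.29 to 0.061 for the cytoplasmic genes, from -0.24 to 0.29 for the nuclear factors and from -0.12 to 0.42 for the targets.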
